A study of Mus musculus with 12 samples.

Results

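The genes described here are 54 genes of the G2 and M phases of the cell cycle, chosen by symbol from the 12212 gene symbols that each library's table lists, and all 54 were listed and passed the filter on low counts. They encode the cyclins and kinases that take a cell into mitosis, the proteins of the spindle, the kinetochore and the spindle checkpoint, and the proteins that separate the chromosomes and the daughter cells. They were read in germinal center B cells sorted from spleens of the lupus-prone F1 strain NZBWF1/J. B cells were first enriched by negative selection, and flow cytometry then gave dark zone and light zone fractions, with 1000 cells per library. The 12 libraries formed 4 groups of 3: dark zone treated, dark zone control, light zone treated and light zone control. Treated mice of this strain were given 6 doses each of CTLA4-Ig (200 ug), a fusion protein that binds CD80 and CD86, and of an antibody against CD40L (250 ug), the T cell ligand of CD40. Dosing ran over 2 weeks from 18 weeks of age. Control mice of the same strain were untreated. The labels give no age for control mice, no antibody panel for the zone sort and no statement on whether replicate numbers mark separate mice, so the p-values reflect only how these libraries vary, which may be technical.

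In dividing cells, cyclin B and its kinase Cdk1 drive entry into mitosis, the spindle checkpoint holds back anaphase until every kinetochore is attached, and the anaphase-promoting complex then marks securin and the cyclins for destruction. Most genes for these proteins are transcribed late in the cell cycle, so that their RNA level in a population follows the share of cells in G2 and M. In the germinal center, B cells divide mainly in the dark zone and are selected for further rounds of division in the light zone, in part through CD40L on T cells.

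Library totals were 16032746 to 26837714 counts, and a floor of 3 counts corresponded to 0.0776 to 0.206 CPM (the unit of level used throughout, counts relative to the TMM-scaled library size). The sort was checked with 3 light zone markers (Cd83, Cd86 and Cd40), whose summed level was 218 to 382 CPM in dark zone treated, 155 to 360.1 in dark zone control, 838 to 1105 in light zone treated and 699 to 908 in light zone control libraries. The sum over 3 dark zone markers (Cxcr4, Foxo1 and Gcsam) was 575 to 1023 CPM in dark zone treated, 673 to 1007 in dark zone control, 329 to 692 in light zone treated and 434 to 604 CPM in light zone control libraries. In this sum the zones overlapped in treated libraries and did not in control libraries. By gene, the control zones were separate for Gcsam only (635 to 852 against 306 to 515 CPM). Cxcr4 (16.4 to 93.7 against 34.3 to 39.8 CPM) and Foxo1 (20.9 to 121 against 54.2 to 88.4 CPM) overlapped there. The treated zones were separate for Cxcr4 only (77.9 to 163 against 19.9 to 42.6 CPM). A set of 3 treated libraries, replicates 1 and 2 of the dark zone and replicate 2 of the light zone, stood apart from the other 9 libraries, at 147 to 166 against -103 to 20.4 on the first principal component. Pearson's r of log2 CPM was 0.97 between dark zone treated replicates 1 and 2, and 0.66 to 0.82 between other pairs of replicates. The 3 libraries that stood apart had 17 to 24 symbols without a count, against 252 to 828 in the other 9. In these 3 libraries the summed level of 8 macrophage markers was 79.0 to 213 CPM against 5.97 to 44.5 CPM in the other 9, and 6 of the 8 were higher in all 3. By group the sums were 7.93 to 90.1 CPM in dark zone treated, 7.27 to 16.6 in dark zone control, 19.3 to 213 in light zone treated and 5.97 to 44.5 CPM in light zone control libraries. The neutrophil genes S100a8 and Camp were at 0 in the other 9 libraries, and the sum over 5 neutrophil markers was 1.68 to 59.8 against 0 to 2.28 CPM. Only the dark zone libraries of the 3, at 28.7 and 59.8 CPM, lay above that range. Light zone treated replicate 2, at 1.68 CPM, lay inside it. The sum over 6 plasma cell markers was 1853 to 3133 CPM in the 3 libraries that stood apart against 8041 to 13466 CPM in the other 9. Only 2 of the 6 were lower in all 3, Jchain (1109 to 2154 against 6206 to 11324 CPM) and Mzb1 (542 to 722 against 1543 to 2262 CPM). The others (Xbp1, Prdm1, Irf4 and Sdc1) overlapped. Erythroid cells, which also divide in mouse spleen, had a marker sum of 801 CPM in dark zone control replicate 1, against 6.02 to 193 CPM in the other 11 libraries. Of the 4 markers measured, Hba-a1 was at 524 CPM in that library and 20.9 to 87.0 CPM in the 3 libraries that stood apart. Hbb-bs was at 230 and 12.9 to 62.6 CPM in the same libraries. In the rest these genes were at most 1.07 and 5.11 CPM, and most of the sum there was Tfrc. The sum over 7 T cell markers was 108 to 282.8 CPM in dark zone treated, 160 to 230 in dark zone control, 132 to 448 in light zone treated and 97.7 to 190 CPM in light zone control libraries. Most of this sum was Cd2 in every library. Of the 7 markers, 3 were higher in all 3 libraries that stood apart than in the other 9. These were Cd3e (2.61 to 10.6 against 0.658 to 1.99 CPM), Cd4 (0.916 to 5.38 against 0 to 0.152 CPM) and Cd8a (0.966 to 2.71 against 0 to 0.160 CPM). The part of these other cells and of the 3 libraries in the results was not tested, and the counts and medians over the 54 genes are given with and without the 3. By edgeR's quasi-likelihood test 0 of 12081 genes, and so none of the 54, passed an adjusted p of 0.05 in any of the 7 comparisons, with 249 to 2015 genes at an unadjusted p under 0.05. DESeq2 called none of the 54, and called 0.596% of all tested genes for treatment in the dark zone, 1.79% in the light zone and 6.17% in the average, 0.935% between zones in control, 0.00828% in treated and 0.53% in the average, and 0.132% for the interaction. The limma-voom test with quality weights called 15 of the 54 for treatment in the dark zone (7 higher and 8 lower), against 26.3% of all tested genes. It called none of them between zones, where it called 1 gene of all (0.00828%) in control. For the averaged treatment it called Mad2l1 and Pttg1, both lower, against 8.83% of all tested genes. Those weights were 4.70 and 5.43 for replicates 1 and 2 of the dark zone treated group and 0.237 for replicate 3. The differences below come from edgeR unless another test is named, and are described without a call.

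The share of all counts that fell on the 54 genes averaged 1.04 ± 0.120% in dark zone treated, 0.905 ± 0.0897% in dark zone control, 0.738 ± 0.260% in light zone treated and 0.673 ± 0.0755% in light zone control libraries (SD, n = 3 each). By library it was 0.907, 1.06 and 1.14% in dark zone treated, 0.872, 0.835 and 1.01% in dark zone control, 0.753, 0.471 and 0.990% in light zone treated and 0.605, 0.660 and 0.754% in light zone control libraries. Within control libraries the zones did not overlap. Within treated libraries, light zone replicate 3 exceeded dark zone replicate 1. Fewer cells in G2 or M and less of this RNA per cell cannot be told apart in these libraries of pooled cells. After TMM scaling, which raised the effective size of the 3 libraries that stood apart, the sums were 6397, 7861 and 12130.3 CPM in dark zone treated and 9585, 10254 and 10183 CPM in dark zone control libraries. They were 8544, 3265 and 11234 CPM in light zone treated and 6847, 7656 and 8494 CPM in light zone control libraries, so that each of the 3 libraries lay below the libraries of its group that did not stand apart.

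**Figure D1:**
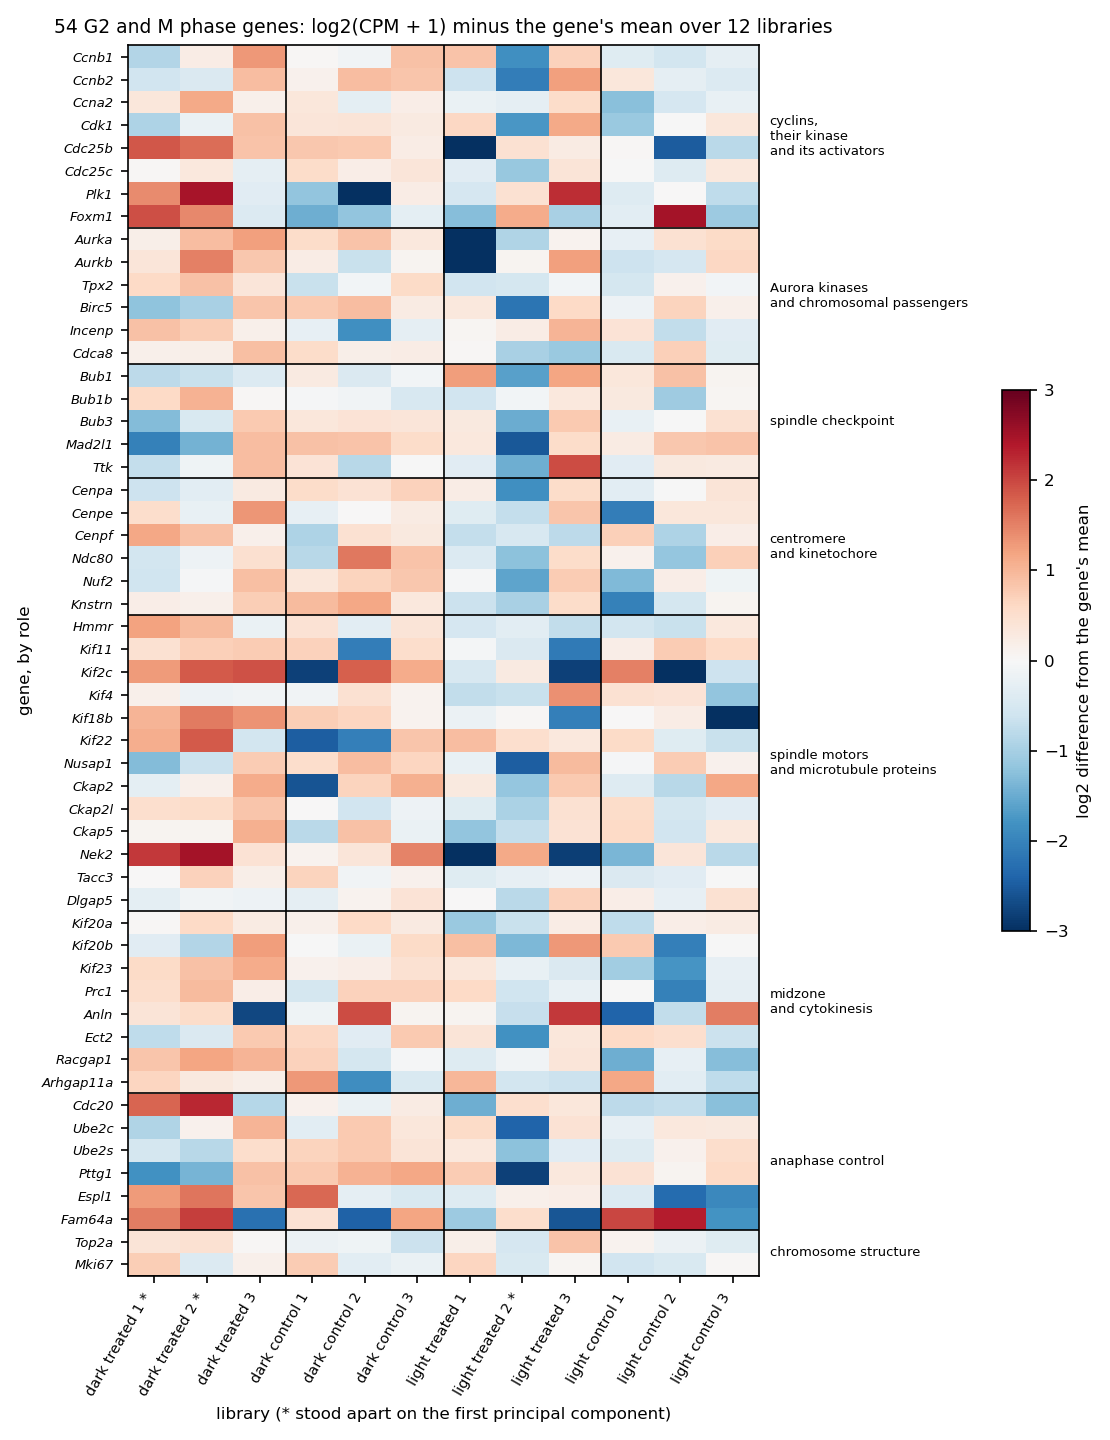
Level of each of the 54 genes (rows, by role) in each of the 12 libraries (columns), as log2(CPM + 1) minus the gene's mean over the libraries, with asterisks on the 3 libraries that stood apart. Pttg1, Mad2l1, Birc5, Nusap1 and Bub3 are blue in all 3 of those libraries, and Cdc20 is red in both of those from the dark zone.

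Levels between genes were compared per kb of the median mRNA length. Pttg1 (securin, the inhibitor of separase) had the highest group mean in all 4 groups, at 775 CPM per kb in dark zone treated, 1865 in dark zone control, 961 in light zone treated and 1217 in light zone control libraries. The spindle checkpoint gene Bub3 followed at 319, 436, 369 and 360.3 CPM per kb in the same groups. Ccnb2 (cyclin B2) and Cenpa (the centromeric histone) were the next highest in all 4 groups. Of the 54 genes, 39 had at least 10 CPM in all 12 libraries. Only Kif2c and Fam64a were at or under 3 counts in any library.

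Dark zone and light zone cells were compared to describe how far expression for mitosis differs between the zones. Averaged over treatments, 43 of the 54 genes had a positive log2 difference (dark minus light zone), against 46.1% of all tested genes, and their median difference was 0.34 against -0.06 for all tested genes. The differences of 8 genes had an unadjusted p under 0.05, and all 8 were higher in the dark zone, which is 14.8% of the 54 against 2.57% of all tested genes. These were Kif23, Racgap1, Espl1, Hmmr, Cdc20, Knstrn, Cdc25b and Tacc3, which act in cytokinesis, chromosome separation, spindle assembly and mitotic entry. None of the 54 was lower at this p, against 2.37% of all tested genes, and the smallest adjusted p among them was 0.991.

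The zone difference was read separately in treated and in control libraries, which share no samples. Both come from 1 fit with a shared estimate of the spread, so their p-values are not independent. In treated libraries 41 of 54 genes were positive with a median of 0.47, against 47.4% and -0.05 for all tested genes, and 5 genes (Cenpf, Hmmr, Tpx2, Cdca8 and Racgap1) were higher at an unadjusted p under 0.05, against 0.604% of all tested genes. In control libraries 38 of 54 were positive with a median of 0.34, against 49.8% and 0.00 for all tested genes, and 4 genes (Espl1, Kif23, Knstrn and Racgap1) were higher at that p, against 3.02%. None was lower at that p in either, against 1.46% of all tested genes in treated and 1.9% in control libraries. All 3 dark zone treated libraries exceeded all 3 light zone treated libraries for 14 genes, against 3.55% of all tested genes. Dark zone control libraries exceeded light zone control libraries in the same way for 8 genes, against 5.6%. No gene of the 54 had all 6 dark zone values above, or all 6 below, the 6 light zone values (0.0911% and 0.0993% of all tested genes). Cdc25b and Kif23 belonged to both sets, and none of the 54 genes had the opposite order in either, against 2.24% of all tested genes in treated and 4.47% in control libraries. Without the 3 libraries that stood apart, 41 of 54 genes were positive in the averaged comparison (46.3% of all genes) with a median of 0.34, and at an unadjusted p under 0.05 Ccnb1, Kif23, Nek2 and Pttg1 were higher (4.14% of all genes) and Bub1 was lower (2.82%). In treated libraries 36 of 54 were then positive with a median of 0.41, against 44.9% and -0.09 for all genes. Single light zone treated libraries moved these values in both directions. Without replicate 2, 35 of 54 were positive in the average with a median of 0.21, against 51.9% and 0.04 for all genes, and 7 genes were higher at that p against 9.85% of all genes. Without replicate 3 the count was 50 and the median 0.55, against 48.4% and -0.02. In treated libraries alone, 29 were positive with a median of 0.26 without light zone replicate 2, against 51.8% and 0.06 for all genes. Without light zone replicate 3, 51 were positive with a median of 0.82, against 49.4% and -0.01. With limma-voom in place of edgeR, 38 of 54 were positive in the average with a median of 0.25, against 57.2% and 0.20 for all genes. In treated libraries its values were 32 and 0.41, against 57.7% and 0.35, so the 54 lay close to all genes in both. In control libraries its values were 38 and 0.37, against 51.6% and 0.03.

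**Figure D2:**
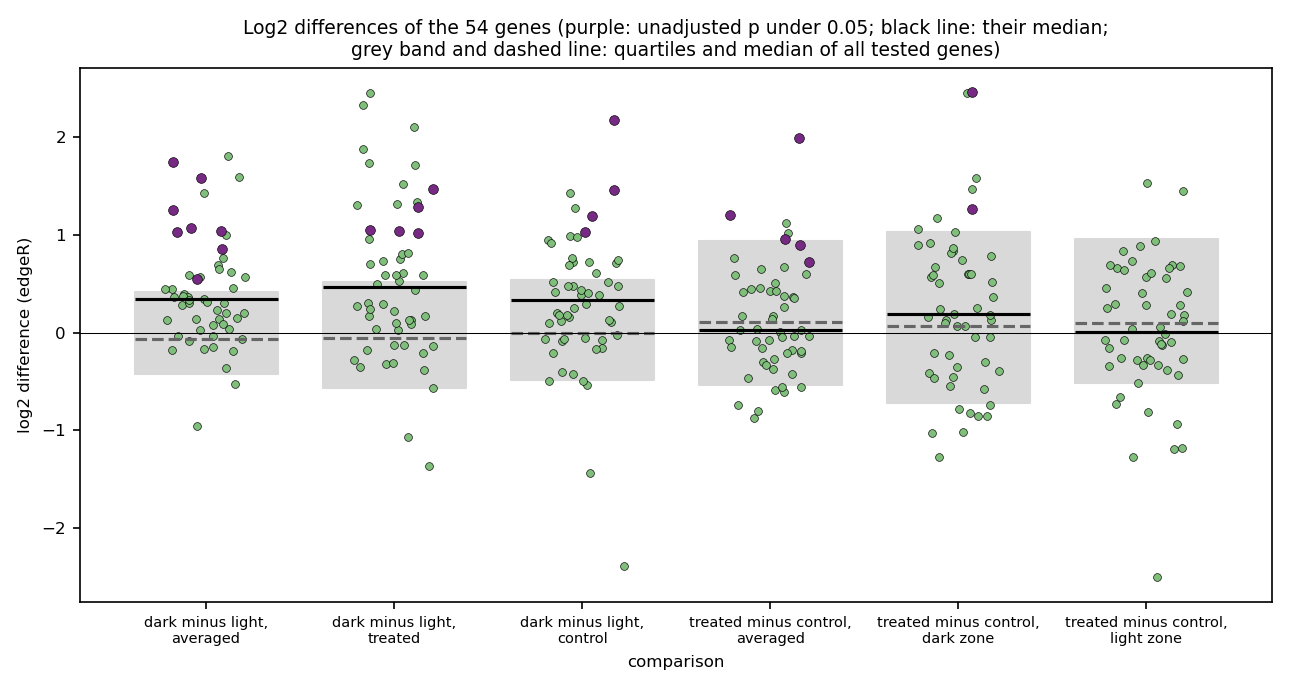
Log2 difference of each of the 54 genes (points) in 6 comparisons, with the median of the 54 as a black line, the median of all tested genes as a dashed line and their quartiles as a grey band. The black line lies above the dashed one in the 3 zone comparisons (0.34 against -0.06, 0.47 against -0.05 and 0.34 against 0.00) and close to it in the 3 treatment comparisons (0.03 against 0.11, 0.19 against 0.06 and 0.01 against 0.10).

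The treatment comparisons ask how CTLA4-Ig with anti-CD40L, which withdraws T cell help, bears on mitotic expression in the B cells that remain. In the dark zone 34 of 54 genes had a positive difference (treated minus control), with a median of 0.19 against 52.2% and 0.06 for all tested genes. In the light zone 27 of 54 were positive, with a median of 0.01 against 54.1% and 0.10. Averaged over zones 29 of 54 were positive, with a median of 0.03 against 53.9% and 0.11, and the smallest adjusted p was 0.235. At an unadjusted p under 0.05, Incenp and Plk1 were higher in the dark zone (4.87% of all tested genes), none was in the light zone (5.83%), and Racgap1, Plk1, Incenp, Cdc20 and Kif23 were higher in the average (10.8%). The last 5 are 9.26% of the 54, a share near that of all tested genes. None was lower at that p, against 4.03% of all tested genes in the dark zone, 1.53% in the light zone and 5.88% in the average. In the dark zone, 9 genes were higher in all 3 treated libraries than in all control libraries (12.5% of all tested genes) and Cenpa was lower (11.2%). The corresponding genes in the light zone were Espl1, which was higher (5.82%), and Kif11, which was lower (5.49%). None of the 54 had all 6 treated values above, or all 6 below, the 6 control values (0.811% and 1.01% of all tested genes). The light zone comparison depended on single libraries: without treated replicate 2 the median was 0.28 and 38 genes were positive, and without treated replicate 3 it was -0.41 with 18 positive. Without all 3 libraries that stood apart, 39 of 54 were positive in the light zone (median 0.28, against 48% and -0.04 for all genes) and 37 in the average (median 0.19, against 43.9% and -0.11). At an unadjusted p under 0.05, Ccnb1, Cdk1 and Top2a were then higher in the light zone (3.58% of all genes) and Bub3, Ccnb1 and Cdk1 in the average (2.68%). Nek2 was lower in both, at -3.85 (SE 1.09, unadjusted p = 0.00958) in the light zone (3.82% of all genes were lower) and -2.10 (SE 0.84, unadjusted p = 0.0421) in the average (4.33%), and it had 5 and 21 counts in the 2 light zone treated libraries left. In the dark zone 34 of 54 were positive without the 3 libraries, with a median of 0.25 against 45.3% and -0.11 for all genes. With a term for the 3 libraries in place of leaving them out, 45 of 54 were positive in the dark zone, with a median of 0.49 against 45.7% and -0.09 for all tested genes. Without the 3 libraries the dark zone and averaged comparisons hold 1 dark zone treated library, which is assumed to vary like the other groups, and with the term the dark zone comparison rests on the same library and on a shift shared by both zones. The median in the dark zone was 0.06 without treated replicate 3 (28 positive) and 0.38 without treated replicate 1 (36 positive), and the averaged median was -0.05 without light zone treated replicate 3 (26 positive).

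A difference between the treatment effects in the dark and the light zone was tested as an interaction. Of the 54 genes, 28 had a positive term with a median of 0.04, against 44.5% and -0.15 for all tested genes, and none had an unadjusted p under 0.05 (0.811% of all tested genes were higher and 1.47% lower at that p). The smallest p belonged to Cenpf at 1.55 (SE 0.70, unadjusted p = 0.0503), followed by Foxm1 at 3.72 (SE 1.69, unadjusted p = 0.0513) and Kif11 at 1.72 (SE 0.96, unadjusted p = 0.102). Without light zone treated replicate 3 the median was 0.44, and without light zone treated replicate 2 it was -0.27. Without the 3 libraries that stood apart 22 were positive with a median of -0.06, against 46.0% and -0.10 for all genes.

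Promoters of the genes were read because members of this class are known to share short elements near their start: the cell cycle homology region (CHR, TTTGAA), bound by the DREAM and MuvB complexes, and the CCAAT box (CCAAT), bound by NF-Y. RefSeq promoter windows of build GRCm38.p6, from 250 bases before to 50 bases after a start, were found for 45 of the 54 genes, in 48 windows. Searched on both strands, TTTGAA was present in 35 of 48 windows (72.9%), against 17.9% of 32851 windows of all genes. CCAAT was present in 36 (75%), against 37.4%, and both in 31 (64.6%), against 6.95%. At least 2 CCAAT matches were found in 24 windows (50%), against 11.7%. Matches of the 2 motifs can share at most 1 base. A match is a description of these letters and does not show a bound site. Fam64a, Foxm1, Dlgap5, Incenp, Kif20a, Aurkb, Ccna2, Tpx2 and Cdc25c had no window in the table.

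Of the 8 genes at an unadjusted p under 0.05 in the averaged zone comparison, Racgap1, Kif23, Espl1, Cdc20 and Hmmr hold both motifs, Cdc25b holds CCAAT only, and Knstrn and Tacc3 hold neither. Both motifs were present in 64.6% of the 48 windows, a share near that of these 8 genes. The stretches below are shown for the 5 that hold both and for Cenpf, which had a small p between zones in treated libraries. Each runs 5′ to 3′ on the gene's strand over 140 bases, with 120 before the RefSeq start and 20 from the start on, and capitals mark TTTGAA and, on either strand, the CCAAT box, which reads ATTGG when on the other strand. They lie at chr15:99651637-99651776 (minus strand), chr9:61946780-61946919 (minus), chr15:102296173-102296312 (plus), chr4:118437324-118437463 (minus), chr11:40733418-40733557 (minus) and chr1:189688067-189688206 (minus), each at the start of the named gene.
Racgap1: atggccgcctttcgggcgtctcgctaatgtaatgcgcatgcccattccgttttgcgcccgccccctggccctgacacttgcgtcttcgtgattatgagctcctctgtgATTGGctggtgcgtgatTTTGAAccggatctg
Kif23: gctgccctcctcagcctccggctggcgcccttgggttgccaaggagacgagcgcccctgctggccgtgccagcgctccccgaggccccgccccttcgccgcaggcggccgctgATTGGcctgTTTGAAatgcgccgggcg
Espl1: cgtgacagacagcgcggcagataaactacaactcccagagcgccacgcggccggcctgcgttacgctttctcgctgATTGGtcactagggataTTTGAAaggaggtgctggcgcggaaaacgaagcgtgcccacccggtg
Cdc20: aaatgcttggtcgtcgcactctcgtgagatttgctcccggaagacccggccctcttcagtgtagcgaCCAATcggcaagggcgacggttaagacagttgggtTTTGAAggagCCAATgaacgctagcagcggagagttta
Hmmr: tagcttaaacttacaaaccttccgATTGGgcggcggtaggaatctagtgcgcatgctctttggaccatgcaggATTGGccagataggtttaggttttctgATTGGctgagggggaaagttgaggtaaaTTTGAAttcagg
Cenpf: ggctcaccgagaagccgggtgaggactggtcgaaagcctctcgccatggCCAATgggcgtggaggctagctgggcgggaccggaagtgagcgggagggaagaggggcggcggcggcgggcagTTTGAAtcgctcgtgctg
In all 6, which were picked as holding both motifs, the TTTGAA match is on the gene's own strand and begins within 27 bases of the start. It begins 27 bases before the start in Espl1, 18 before it in Cdc20, and 2, 2, 5 and 8 bases after it in Kif23, Cenpf, Racgap1 and Hmmr. A CCAAT match lies upstream of it, beginning 7 bases before the start in Kif23, 12 in Racgap1 and 44 in Espl1. Hmmr holds 3 such matches in this stretch, at 20, 47 and 96 bases before the start.

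**Figure D3:**
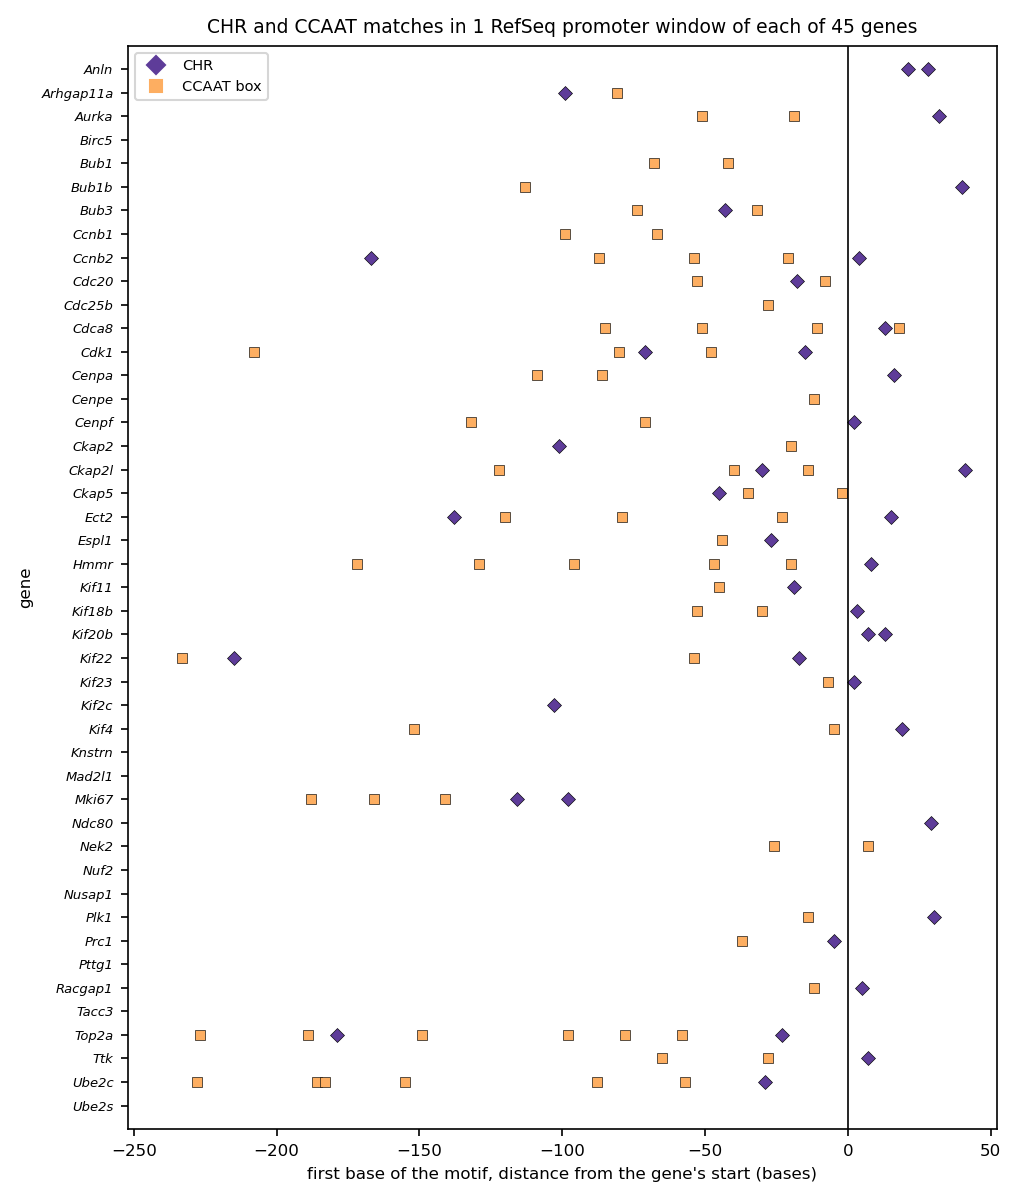
Position of CHR (diamonds) and CCAAT box (squares) matches in a RefSeq promoter window of each of 45 genes, in bases from the start (vertical line). Most diamonds lie near the line and most squares to the left of it, and Birc5, Knstrn, Mad2l1, Nuf2, Nusap1, Pttg1, Tacc3 and Ube2s show no match.

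Values by library are given in order of replicates 1 to 3, so the libraries that stood apart are the first 2 of the dark zone treated and the second of the light zone treated values. Among the 8 genes of mitotic entry, 6 had a positive zone difference averaged over treatments (median 0.37) and 6 a positive treatment difference averaged over zones (median 0.50). Ccnb1, the cyclin B1 that activates Cdk1 for mitosis, had 162, 352 and 734 CPM in dark zone treated, 309, 279.6 and 550.1 in dark zone control, 545, 83.5 and 484 in light zone treated and 233, 204 and 250.4 in light zone control libraries. All dark zone control values exceeded all light zone control values, while treated and control libraries overlapped in both zones and light zone treated replicate 2 was the lowest of the 12. Its averaged treatment difference was 0.41 (SE 0.47, unadjusted p = 0.4) in all libraries and 1.08 (SE 0.23, unadjusted p = 0.00243, adjusted p = 0.557) without the 3 libraries that stood apart. Ccnb2, the second B-type cyclin, had 269, 299 and 767 CPM in dark zone treated, 444, 773 and 725 in dark zone control, 263, 94.4 and 947 in light zone treated and 508, 333 and 303 in light zone control libraries. Its groups overlapped in every comparison. Cdk1, the kinase of both cyclins, had 182, 304 and 641 CPM in dark zone treated, 445, 457 and 420.5 in dark zone control, 537, 104 and 769.9 in light zone treated and 160.3, 347 and 439 in light zone control libraries. The dark zone control libraries were close together and lay inside the range of the treated ones, and its averaged zone difference was 0.08 (SE 0.47, unadjusted p = 0.87). Ccna2, cyclin A2 of S phase and early mitosis, had 226, 391 and 198 CPM in dark zone treated, 225, 145 and 203 in dark zone control, 154, 147 and 262 in light zone treated and 73.8, 125 and 152 in light zone control libraries. Light zone control replicate 1 was its lowest library and dark zone treated replicate 2 its highest, and its differences were 0.62 (SE 0.28, unadjusted p = 0.0514) between zones and 0.60 (SE 0.28, unadjusted p = 0.06) with treatment.

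Plk1, a kinase that promotes mitotic entry and spindle assembly, had 117, 246 and 33.8 CPM in dark zone treated, 18.6, 2.68 and 50.6 in dark zone control, 30.1, 59.9 and 203 in light zone treated and 33.03, 43.5 and 24.97 in light zone control libraries. Replicates 1 and 2 of the dark zone treated and replicate 3 of the light zone treated group were high, and the third dark zone treated library lay among the controls. Its averaged treatment difference was 2.00 (SE 0.73, unadjusted p = 0.0204), and 1.16 (SE 0.90, unadjusted p = 0.241) without the 3 libraries that stood apart. Foxm1, a transcription factor of late cell cycle genes, had 30.5, 21.5 and 5.29 CPM in dark zone treated, 1.99, 2.68 and 5.78 in dark zone control, 2.398, 16.96 and 3.25 in light zone treated and 5.69, 46.1 and 2.92 in light zone control libraries. Its highest value came from light zone control replicate 2, and its next 3 from the libraries that stood apart. Cdc25b, a phosphatase that activates Cdk1, had 3 dark zone treated values of 61.4 to 124 CPM above 3 light zone treated values of 1.696 to 46.4 CPM, and 3 dark zone control values of 39.1 to 58.6 CPM above 3 light zone control values of 5.05 to 34.1 CPM. Its averaged zone difference was 1.59 (SE 0.68, unadjusted p = 0.0402), or 1.49 without the 3 libraries. The related Cdc25c ranged over 9.62 to 33.4 CPM in the 12 libraries, with overlapping groups.

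The 6 genes of the Aurora kinases and the chromosomal passenger complex, which corrects faulty spindle attachments, included 5 with a positive averaged zone difference (median 0.48). Aurka, the Aurora kinase of centrosomes and spindle poles, had 74.9, 127 and 156 CPM in dark zone treated, 97.8, 120.2 and 82.5 in dark zone control, 2.98, 34.8 and 70.7 in light zone treated and 55.7, 91.03 and 98.9 in light zone control libraries. The treated zones did not overlap, and light zone treated replicate 1 was far below all other libraries. Tpx2, which activates Aurka on the spindle, had 107, 130.1 and 90.2 CPM in dark zone treated, 43.9, 66.8 and 105 in dark zone control, 46.6, 48.6 and 66.1 in light zone treated and 48.5, 77.4 and 66.7 in light zone control libraries. Its treated zones did not overlap either, with a difference of 1.02 (SE 0.39, unadjusted p = 0.0251), and 0.67 without the 3 libraries. Aurkb, the kinase of the passenger complex, had 104, 231 and 143 CPM in dark zone treated, 94.5, 49.996 and 84.7 in dark zone control, 8.42, 85.3 and 190.1 in light zone treated and 51.7, 56.5 and 124 in light zone control libraries. All dark zone treated values exceeded all dark zone control values, and light zone treated replicate 1 was again the lowest. Incenp, the scaffold of that complex, had 88.9, 80.5 and 53.3 CPM in dark zone treated, 40.2, 12.6 and 39.5 in dark zone control, 49.6, 55.9 and 97.6 in light zone treated and 63.6, 28.5 and 37.8 in light zone control libraries. The dark zone treated libraries exceeded the dark zone controls without overlap, and the averaged treatment difference was 0.96 (SE 0.38, unadjusted p = 0.0281), or 0.79 without the 3 libraries. Birc5, or survivin, which brings the complex to centromeres, had 103, 120.4 and 422 CPM in dark zone treated, 409, 450.1 and 284 in dark zone control, 298, 51.5 and 358 in light zone treated and 212, 381 and 266 in light zone control libraries. Its 3 lowest values came from the 3 libraries that stood apart. Cdca8, or borealin, ranged over 197 to 329.99 CPM in dark zone treated and 82.02 to 181 CPM in light zone treated libraries without overlap, a difference of 1.05 (SE 0.44, unadjusted p = 0.0364), or 1.31 without the 3 libraries. In control libraries its zones overlapped.

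The 5 genes of the spindle checkpoint showed no common zone difference: 2 were positive and the median was -0.03. Bub1, a checkpoint kinase at kinetochores, had 31.4, 34.3 and 40.97 CPM in dark zone treated, 66.4, 40.5 and 51.8 in dark zone control, 132, 17.2 and 126 in light zone treated and 70.3, 102 and 58.1 in light zone control libraries. It had the lowest averaged zone difference of the 54 genes, at -0.95 (SE 0.44, unadjusted p = 0.0529) and -1.11 (SE 0.32, unadjusted p = 0.00943, adjusted p = 0.559) without the 3 libraries, and its groups overlapped in every comparison. Bub3, which carries Bub1 to kinetochores, had 299, 537 and 1283 CPM in dark zone treated, 946, 991 and 961 in dark zone control, 902, 265 and 1289 in light zone treated and 639, 736 and 1022 in light zone control libraries. Mad2l1, the Mad2 protein that blocks Cdc20, had 114, 174 and 894 CPM in dark zone treated, 858, 848 and 686 in dark zone control, 577, 79.04 and 680.2 in light zone treated and 556, 822 and 839.9 in light zone control libraries. For both genes the 3 lowest values came from the libraries that stood apart, and the other 9 were close together, with an SD of 0.33 on the log2 scale for Bub3 and 0.26 for Mad2l1. Of the remaining 2, Bub1b (BubR1) was higher in all 3 dark zone treated libraries (40.3 to 81.3 CPM) than in the dark zone controls (27.6 to 38.2 CPM). Ttk, the kinase Mps1 that starts the checkpoint, ranged over 10.9 to 127 CPM with its highest value in light zone treated replicate 3.

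All 6 genes of the centromere and kinetochore had a positive averaged zone difference (median 0.51). Cenpa, the histone H3 variant that marks centromeres, had 164, 205 and 306 CPM in dark zone treated, 375, 342 and 412 in dark zone control, 295, 70.8 and 370.5 in light zone treated and 204, 252 and 331 in light zone control libraries. The dark zone control libraries lay above all light zone control and all dark zone treated libraries. Cenpe, a kinesin that moves chromosomes to the spindle equator, had 219.99, 130.5 and 383 CPM in dark zone treated, 128, 153 and 179 in dark zone control, 117, 91.7 and 270.2 in light zone treated and 35.4, 194 and 193 in light zone control libraries. Its groups overlapped, and light zone control replicate 1 was the lowest. Cenpf, a large kinetochore protein of G2 and M, had 175, 145 and 87.1 CPM in dark zone treated, 40.5, 107 and 96.2 in dark zone control, 47.2, 55.3 and 44.9 in light zone treated and 128, 40.8 and 89.8 in light zone control libraries. The treated zones did not overlap, at 1.47 (SE 0.50, unadjusted p = 0.0147), or 0.90 without the 3 libraries, whereas the control zones overlapped and differed by -0.08 (SE 0.49, unadjusted p = 0.868). Knstrn, or kinastrin, which joins kinetochores to spindle fibres, had 61.8, 59.6 and 88.9 CPM in dark zone treated, 104, 119.8 and 66.3 in dark zone control, 33.9, 26.6 and 79.1 in light zone treated and 12.3, 36.8 and 56.3 in light zone control libraries. The control zones did not overlap, the treated zones did, and the averaged difference was 1.03 (SE 0.42, unadjusted p = 0.0323), or 1.05 without the 3 libraries. Nuf2, a subunit of the Ndc80 complex that binds microtubules, was also higher in all dark zone control libraries (104 to 144 CPM) than in all light zone control libraries (32.4 to 94.4 CPM). Its partner Ndc80 ranged over 31.7 to 228 CPM with overlapping groups.

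Of the 13 genes of spindle motors and microtubule proteins, 11 had a positive averaged zone difference (median 0.37). Hmmr, a microtubule-binding spindle protein first known as a hyaluronan receptor, had 138, 115 and 51.8 CPM in dark zone treated, 80.1, 47.3 and 78.1 in dark zone control, 41.8, 47.8 and 35.4 in light zone treated and 40.6, 37.2 and 74.1 in light zone control libraries. The treated zones did not overlap, and the averaged difference was 0.86 (SE 0.32, unadjusted p = 0.0217), or 0.41 without the 3 libraries. Kif11, the kinesin that pushes spindle poles apart, had 94.3, 113 and 115 CPM in dark zone treated, 111, 15.3 and 98.6 in dark zone control, 64.99, 50.3 and 14.9 in light zone treated and 77.97, 117 and 103 in light zone control libraries. All light zone treated values lay below all light zone control and all dark zone treated values, while dark zone control replicate 2 stood at 15.3 CPM, far below the other 2 of its group. Tacc3, a spindle protein that binds Aurka, had an averaged zone difference of 0.55 (SE 0.24, unadjusted p = 0.0397), or 0.46 without the 3 libraries. Its dark zone treated values (84.98 to 136 CPM) exceeded its light zone treated values (64.8 to 74.9 CPM), and its dark zone control values (77.2 to 134 CPM) overlapped its light zone control values (61.9 to 83.4 CPM). Kif18b, a kinesin that trims astral microtubules, Kif2c, a microtubule-depolymerising kinesin, and Ckap2l, a spindle protein, were also higher in all dark zone treated than in all light zone treated libraries. Kif18b and Ckap2l were higher in all dark zone treated than in all dark zone control libraries as well, at 40.2 to 58.3 against 20.9 to 33.04 CPM for Kif18b and 109 to 136 against 51.1 to 76.6 CPM for Ckap2l. The chromosome-bound kinesins Kif4 and Kif22 (24.3 to 147 and 6.100 to 140.1 CPM over the 12 libraries), the spindle proteins Nusap1, Ckap2, Ckap5 and Dlgap5 (50.7 to 558, 3.22 to 56.4, 35.7 to 173 and 27.7 to 80.1 CPM) and the centrosome kinase Nek2 (0.292 to 83.2 CPM) had overlapping groups in every comparison.

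The 8 genes of the spindle midzone and cytokinesis included both genes with the smallest p between zones. Kif23 and Racgap1 encode the kinesin and the GTPase-activating subunit of centralspindlin, the complex that bundles midzone microtubules and places the cleavage furrow. Both hold TTTGAA within 5 bases of the start in the promoter stretches printed for them. TTTGAA was present in 72.9% of the 48 windows, and a link to the zone difference was not tested. Kif23 had 68.8, 85.1 and 99.5 CPM in dark zone treated, 50.2, 52.9 and 63.4 in dark zone control, 58.3, 38.8 and 33.6 in light zone treated and 21.7, 12.7 and 38.5 in light zone control libraries. Dark zone libraries exceeded light zone libraries of the same treatment without overlap, at an averaged difference of 1.07 (SE 0.32, unadjusted p = 0.00681). Racgap1 had 131, 167 and 152 CPM in dark zone treated, 119, 50.6 and 71.5 in dark zone control, 55.7, 68.3 and 94.6 in light zone treated and 25.97, 62.3 and 29.7 in light zone control libraries. Its treated zones did not overlap, its control zones did, and the averaged zone difference was 1.04 (SE 0.32, unadjusted p = 0.00764). Both were also higher in all dark zone treated than in all dark zone control libraries, and their averaged treatment differences were 0.72 (SE 0.32, unadjusted p = 0.0455) and 0.90 (SE 0.32, unadjusted p = 0.0166). Without the 3 libraries that stood apart the zone differences were 1.14 for Kif23 and 1.01 for Racgap1, and the treatment differences 0.90 and 0.94. By group means, Racgap1 stood at 150.1 ± 18.01 CPM in dark zone treated, 80.4 ± 35.1 in dark zone control, 72.9 ± 19.8 in light zone treated and 39.3 ± 20.004 CPM in light zone control libraries (SD, n = 3 each).

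Prc1, which crosslinks midzone microtubules, had 78.3, 105 and 62.2 CPM in dark zone treated, 37.5, 88.4 and 88.3 in dark zone control, 81.95, 35.2 and 46.1 in light zone treated and 53.7, 12.5 and 44.6 in light zone control libraries. Light zone control replicate 2 was the lowest, and the groups overlapped. Kif20a, a kinesin that carries the passenger complex to the midzone, had 47.01, 69.04 and 54.4 CPM in dark zone treated, 50.9, 69.6 and 54.9 in dark zone control, 20.6, 28.4 and 53.2 in light zone treated and 26.6, 52.2 and 54.02 in light zone control libraries. Its averaged treatment difference was -0.21 (SE 0.33, unadjusted p = 0.531). Anln, or anillin, a scaffold of the contractile ring, had 30.3, 34.2 and 2.603 CPM in dark zone treated, 20.97, 91.3 and 24.4 in dark zone control, 24.3, 13.8 and 103 in light zone treated and 3.53, 13.3 and 67.9 in light zone control libraries. Replicates of Anln spread widely in every group, and the groups overlapped. Ect2, the exchange factor that switches on RhoA at the furrow, Kif20b and the GTPase-activating protein Arhgap11a ranged over 11.4 to 74.1, 21.4 to 229 and 8.55 to 84.9 CPM with overlapping groups.

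**Figure D4:**
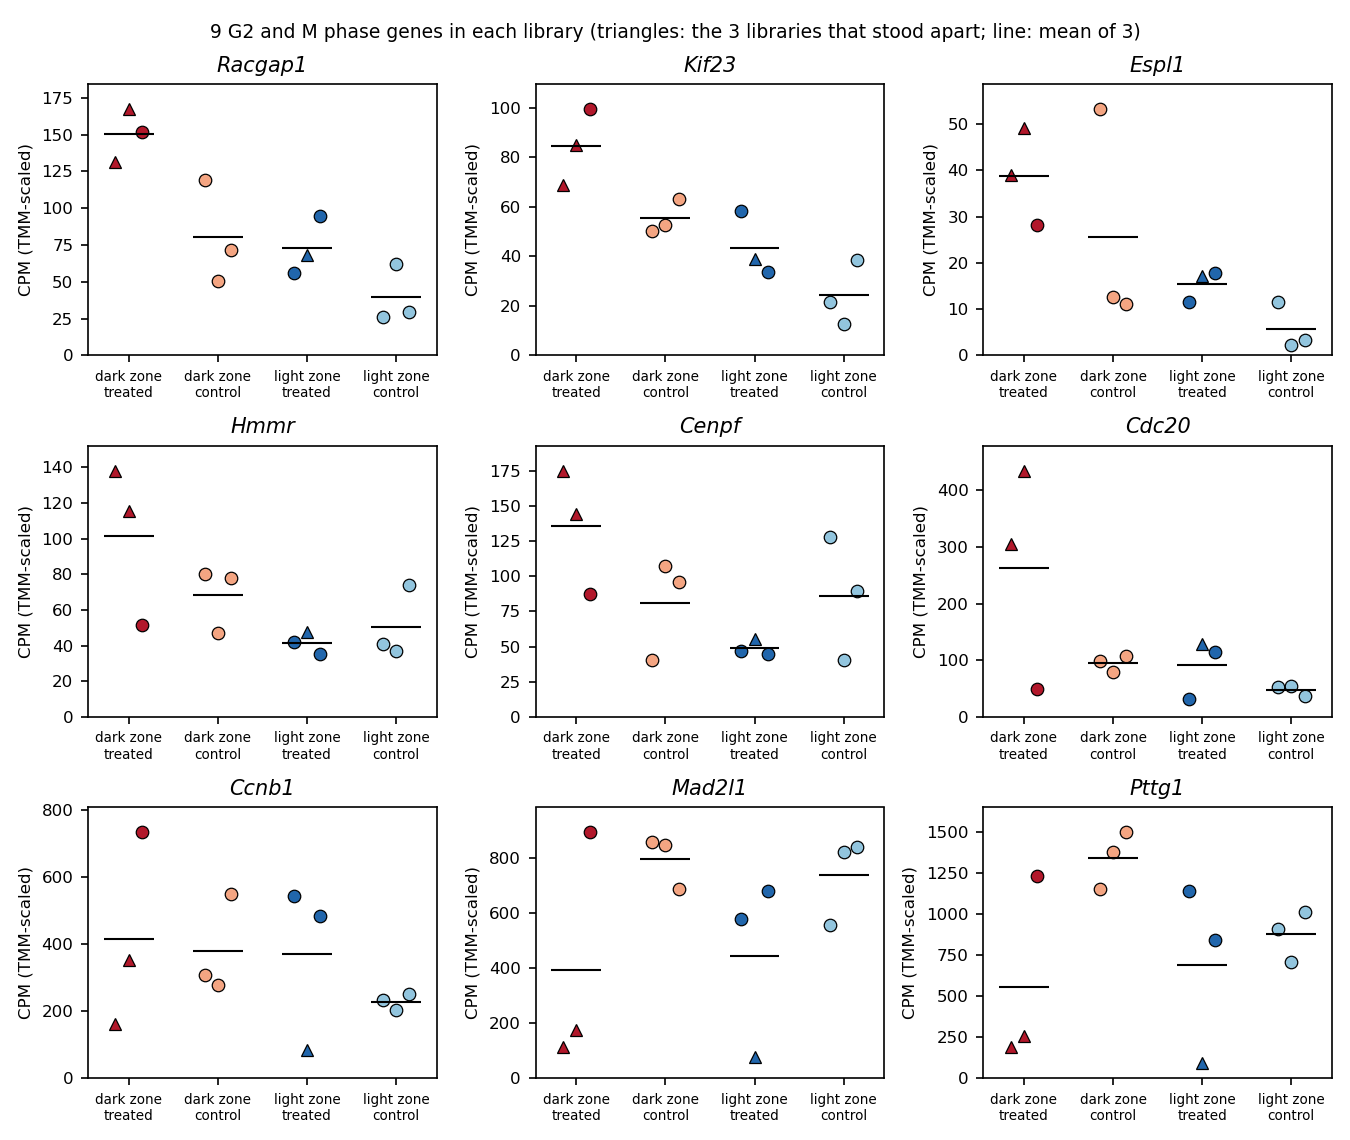
CPM of 9 genes in each library by group, with triangles for the 3 libraries that stood apart and lines for the means of 3. Kif23 lies higher in the dark zone than in the light zone libraries of the same treatment, the high dark zone treated values of Cdc20 and the low treated values of Mad2l1 and Pttg1 are triangles, and the lowest value of Ccnb1 is light zone treated replicate 2.

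All 6 genes of anaphase control had a positive averaged zone difference (median 0.32). Cdc20, the activator of the anaphase-promoting complex, had 305, 435 and 48.9 CPM in dark zone treated, 98.9, 78.3 and 107 in dark zone control, 32.1, 128 and 114 in light zone treated and 52.002, 54.01 and 37.1 in light zone control libraries. The control zones did not overlap. The dark zone treated group was split, with both libraries that stood apart above all others and the third below all dark zone controls. Its zone difference was 1.26 (SE 0.49, unadjusted p = 0.0271) in all libraries and 0.19 without the 3, and its treatment difference was 1.21 (SE 0.49, unadjusted p = 0.0322) and -0.16, a change of sign. Pttg1, the securin that this complex destroys, had 189, 255 and 1229.9 CPM in dark zone treated, 1152, 1381 and 1499.6 in dark zone control, 1139, 95.4 and 843 in light zone treated and 907, 711 and 1012 in light zone control libraries. Again the libraries that stood apart were the 3 lowest, and in control libraries the zones did not overlap. Espl1, the separase that securin holds in check, had 38.9, 49.1 and 28.2 CPM in dark zone treated, 53.3, 12.7 and 11.03 in dark zone control, 11.6, 17.2 and 17.8 in light zone treated and 11.4, 2.296 and 3.29 in light zone control libraries. Dark zone treated values exceeded light zone treated values, the control zones overlapped by a narrow margin, and the averaged zone difference was 1.75 (SE 0.57, unadjusted p = 0.0114), the largest of the 8 with an unadjusted p under 0.05, and 1.54 without the 3 libraries. All light zone treated values of Espl1 (11.6 to 17.8 CPM) also exceeded all light zone control values (2.296 to 11.4 CPM), by a narrow margin. Ube2c and Ube2s are the ubiquitin-conjugating enzymes of the complex. Ube2c had 168, 348 and 644 CPM in dark zone treated, 255, 542 and 399.8 in dark zone control, 474, 58.5 and 425 in light zone treated and 266, 391 and 387 in light zone control libraries. Its groups overlapped, and Ube2s ranged over 98.95 to 404 CPM. Fam64a ranged over 0 to 29.3 CPM and was under 1 CPM in 1 library of each group, so its fitted differences are counted among the 6 and the 54 but are not read as folds. Without Kif2c and Fam64a, a choice made after seeing the data, 41 of 52 genes were positive in the averaged zone comparison with a median of 0.33, and 39 with a median of 0.37 in treated libraries.

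Top2a, the topoisomerase that untangles chromosomes, had 374, 388 and 291 CPM in dark zone treated, 252, 259.9 and 183 in dark zone control, 320.4, 201 and 514 in light zone treated and 308, 249.9 and 219 in light zone control libraries. Its dark zone treated libraries exceeded the dark zone controls without overlap, and its averaged differences were 0.51 (SE 0.25, unadjusted p = 0.0702) with treatment and -0.07 (SE 0.25, unadjusted p = 0.792) between zones. Mki67, which encodes the proliferation marker Ki-67 that coats mitotic chromosomes, had 621, 281 and 414 CPM in dark zone treated, 632, 300.2 and 323 in dark zone control, 581, 269 and 389 in light zone treated and 251, 271 and 381 in light zone control libraries. The groups of Mki67 overlapped in every comparison, with differences of 0.28 (SE 0.30, unadjusted p = 0.375) between zones and 0.26 (SE 0.30, unadjusted p = 0.408) with treatment.

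Most of the 54 genes overlapped between the 3 libraries that stood apart and the other 9. Pttg1, Mad2l1, Birc5, Nusap1, Bub1, Bub3 and Ube2s were lower in all 3 than in all other 9 libraries. These are 7 of the 54, a share near the 16.7% of all tested genes. Only Cdc20 of the 54 was higher in all 3, against 13.7% of all tested genes. The mean log2 difference of the 3 from the other 9 was -2.68 for Pttg1 and -2.67 for Mad2l1, against 2.03 for Cdc20 and 2.00 for Plk1. Across the 54 genes, which are not independent replicates, Spearman's rho between mRNA length and this difference was 0.15. Between the level in the other 9 libraries and this difference it was -0.74, so genes at higher levels tended to be lower in the 3. That level is itself part of the difference. Without the 3 libraries the averaged treatment difference was 0.04 for Pttg1, -0.02 for Mad2l1, 0.19 for Birc5, 0.12 for Nusap1, 0.20 for Bub1, -0.09 for Ube2s and -0.16 for Cdc20, with SEs of 0.17 to 0.43. For Bub3 it was 0.44 (SE 0.19, unadjusted p = 0.0476, adjusted p = 0.708), higher in treated libraries. In the other light zone libraries, Pttg1 had 1139 and 843 CPM in light zone treated libraries, against 907, 711 and 1012 CPM in light zone control libraries, and Mad2l1 had 577 and 680.2 CPM against 556, 822 and 840 CPM. Both overlapped.

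**Figure D5:**
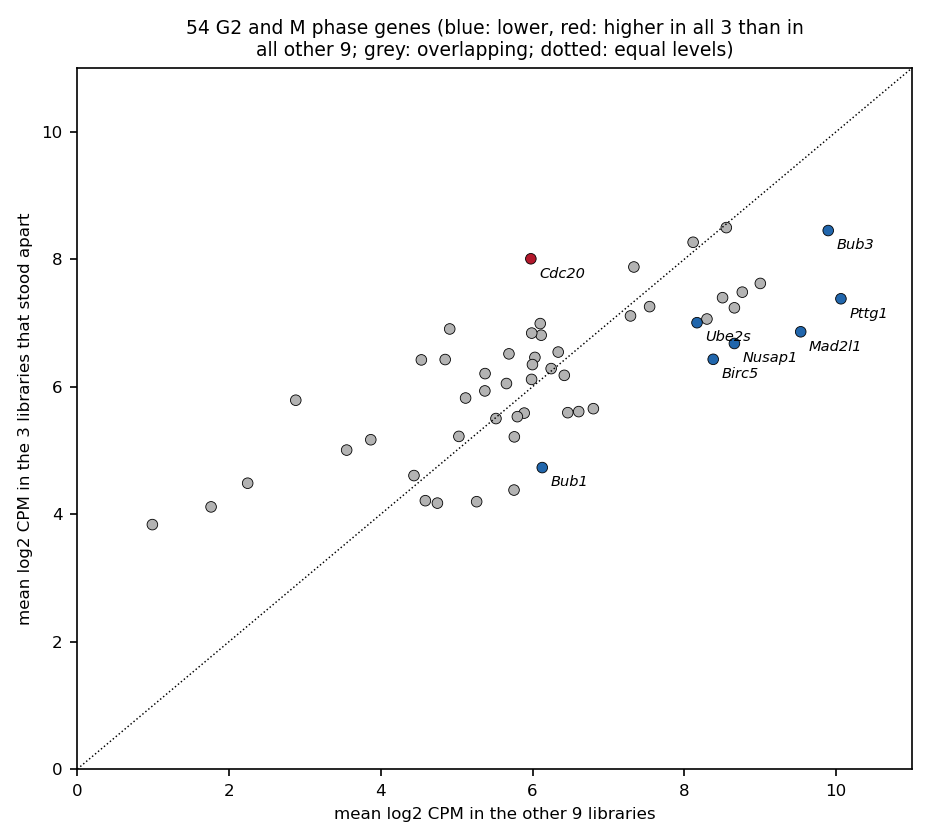
Mean log2 CPM of each of the 54 genes in the 3 libraries that stood apart (vertical axis) against the other 9 (horizontal axis), with the dotted line for equal levels. The blue points, of which Pttg1 and Mad2l1 lie farthest below the line, are lower in all 3 than in all other 9 libraries, and the red point is Cdc20.

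Replicates of the 54 genes were closer than those of genes in general. The median SD of log2 CPM within a group was 0.56 for the 54 and 0.74 for all tested genes in dark zone treated, 0.42 and 0.73 in dark zone control, 1.12 and 1.19 in light zone treated and 0.61 and 0.77 in light zone control libraries. The genes were also measured at higher levels than many others, and this was not matched for. Tacc3, Top2a and Tpx2 varied least within groups, with pooled SDs of 0.30, 0.40 and 0.41, and Fam64a, Kif2c and Nek2 most, with 3.23, 3.05 and 1.86. Exons of 10 of the 54 genes overlap exons of another gene in GENCODE M21 on mm10, and the kits do not keep strand, so a read there could come from either gene. Among the genes with small p-values these are Cdc20 (53 bases shared with Elovl1), Cdc25b (92 with Spef1) and Tacc3 (289 with Tmem129), and Kif20a shares 1271 bases with Cdc23. Ccnb1, Ccnb2, Kif4 and Kif22 have named pseudogenes that could take or give reads. For 11 of the 54 genes, Pttg1, Birc5, Bub1 and Bub3 among them, some deposited values lie midway between whole numbers, and the labels do not say how these came about.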

How the data were processed

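RNA from 1000 sorted cells per library was amplified (SMART-Seq v4 Ultra) and made into Nextera XT libraries, per the labels' protocols, which keeps no strand. The deposited tables give estimated counts per gene symbol for each library, whole or midway between whole numbers, and the submitters' processing notes name BWA and mm10. No source used here names a counting program, an annotation or a gene filter. Blank cells were read as 0 and midway values were rounded up. Amplified reads carry no molecular identifiers, so floors cover counting error only.

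Genes were filtered with filterByExpr (minimum count 10, total 15), leaving 12081, scaled with TMM and fitted as 4 groups of 3 with edgeR 4.0.16 (robust quasi-likelihood, R 4.3.3). The 7 comparisons were tested over all genes with Benjamini-Hochberg adjustment at 0.05, and log2 CPM used a prior count of 2. SEs are the log2 difference over the square root of F. The fit was run on simulated counts with known changes. No simulated libraries stood apart, so this does not show the error rate of the fit on these data. Genes given per library are 27 chosen by role and the 3 with the smallest p in each comparison. The genes and lists were chosen with earlier results of these data known. The dark zone marker sum is given over the genes named beside it, and the sum over germinal center B cell markers is not reported here. Alternatives were DESeq2 1.42.0, limma-voom (limma 3.58.1), other scalings, no filter, a replicate block and libraries left out. mRNA lengths and exon overlaps are from GENCODE M21 (mm10), and promoters are from RefSeq (GRCm38.p6).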

Additional observations from a re-analysis of the deposited data

How the results depend on the processing

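By edgeR the counts of called genes stayed at 0 of the 54 under every alternative run with it, and at 0 of all genes except with a term for the 3 libraries that stood apart, which called 2 genes between zones averaged over treatments. DESeq2 called 72 genes for treatment in the dark zone, 216 in the light zone, 745 in the average, 113 between zones in control, 1 between zones in treated, 64 in the zone average and 16 for the interaction. The limma-voom test called 3178 genes for treatment in the dark zone (15 of the 54), 1067 in the average (2 of the 54) and 1 between zones in control. Its zone medians of the 54 were 0.25 in the average, 0.41 in treated and 0.37 in control. Those of all genes were 0.20, 0.35 and 0.03. With voom in the dark zone Incenp (1.41), Plk1 (3.003), Cdc20 (1.85), Top2a, Foxm1, Racgap1 and Bub1b were called higher, and Pttg1 (-2.57), Mad2l1 (-2.36), Ube2s, Birc5, Nusap1, Cenpa, Bub3 and Ccnb2 lower. Library totals without TMM, chosen after seeing the data, gave medians of the 54 of 0.60 for treatment in the dark zone, 0.38 in the average and 0.82 between zones in treated, with medians of all genes of 0.51 and 0.49 for these treatment comparisons. The interaction median was 0.35 with the term for the 3 libraries. Cdc20 changed sign: its treatment difference in the dark zone was -0.94 without the 3 libraries and -0.17 with the term, and its average was -0.16 without them. The causes were not tested.

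Leaving out 1 library at a time, the median of the 54 ranged from -0.41 to 0.275 for treatment in the light zone, from 0.06 to 0.38 in the dark zone, from -0.05 to 0.14 in the average, from 0.26 to 0.82 between zones in treated, from 0.26 to 0.44 in control, from 0.21 to 0.55 in the zone average and from -0.27 to 0.44 for the interaction. Same-numbered libraries of the 2 zones showed no clear pairing: 3 of 6 pairs had deviations correlated above 0.1, and 2 of 6 dark zone libraries correlated best with their own number. In treated libraries the highest correlations, 0.56 and 0.54, were between libraries that stood apart. With 3 libraries a group, this cannot tell whether same numbers mark the same mice. With a replicate block 0 of the 54 were called and the zone average had a median of 0.41 with the block across the 4 groups and 0.40 within treatment. Low depth limits Kif2c and Fam64a, which have 3 counts or fewer in some libraries; without both the interaction median was -0.03 against 0.04 with them, and the medians of the other comparisons kept their sign.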

Other observations

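Other genes of the cell cycle were read beside the 54. Of 60 further mitosis genes, 40 had a positive averaged zone difference, with a median of 0.23 against -0.06 for all tested genes, and 5 were higher in the dark zone at an unadjusted p under 0.05 (Gas2l3, Gtse1, Psrc1, Ska3 and Smc4), against 2.57% of all tested genes, with none lower and an adjusted p of 0.991 or more. Ska3, a subunit of the kinetochore complex that tracks microtubule ends, had 19.2, 30.7 and 90.04 CPM in dark zone treated, 41.3, 34.1 and 31.4 in dark zone control, 41.8, 14.1 and 41.9 in light zone treated and 7.46, 2.296 and 2.22 CPM in light zone control libraries. Its light zone control values lay below all other libraries. Smc4, a core subunit of condensin, had 469, 372 and 472 CPM in dark zone treated, 533, 558 and 471 in dark zone control, 394, 285 and 173 in light zone treated and 405, 427 and 361 CPM in light zone control libraries, and its control zones did not overlap.

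Of 30 S phase genes, 16 had a positive averaged zone difference (median 0.07, against -0.06 for all tested genes). None had an unadjusted p under 0.05 between zones, against 2.57% of all tested genes higher and 2.37% lower. With treatment, 19 of 30 were positive (median 0.29 against 0.11 for all tested genes), and 4 of the 30 (Mcm6, Cdc6, Lig1 and Chaf1a) were higher at that p, against 10.8% of all tested genes. Cdc6, which loads the replicative helicase, had 48.9, 74.6 and 39.3 CPM in dark zone treated, 17.5, 12.2 and 21.9 in dark zone control, 58.03, 47.2 and 69.9 in light zone treated and 21.1, 46.2 and 18.3 CPM in light zone control libraries. All treated values exceeded all control values of the same zone. A test of the difference between the S phase and the mitosis genes was not made.

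Of 15 genes of the anaphase-promoting complex, 6 had a positive averaged zone difference (median -0.08, against -0.06 for all tested genes). With treatment, 6 were positive (median -0.03, against 0.11). Anapc2 and Anapc5 were higher with treatment at an unadjusted p under 0.05 (10.8% of all tested genes), and Anapc10 and Anapc13 lower (5.88%). None of the 15 differed between zones at that p (2.57% of all tested genes were higher and 2.37% lower). Of 13 genes of promoter complexes of the late cell cycle (DREAM, MuvB and NF-Y), 8 had a positive zone difference (median 0.11). With treatment, 6 were positive (median -0.16). Rbbp4 and Nfya were higher with treatment at that p, and none differed between zones. Cdkn1a, the cyclin-dependent kinase inhibitor p21, had 15.2, 13.8 and 8.89 CPM in dark zone treated, 0 in all 3 dark zone control, 0.117, 10.99 and 23.9 in light zone treated and 0, 15.7 and 8.200 CPM in light zone control libraries, and it was 1 of 13 genes that brake G2 and M. Of these 13, 6 had a positive averaged treatment difference (median -0.01, against 0.11 for all tested genes). Cdkn1a was higher and Gadd45g lower at an unadjusted p under 0.05, against 10.8% and 5.88% of all tested genes. Between zones 8 of the 13 were positive (median 0.13, against -0.06 for all tested genes). Gadd45b was higher in the dark zone and Cdkn1a lower at that p, against 2.57% and 2.37% of all tested genes.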
